A study of Mus musculus with 12 samples.

Results

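The question put to these arrays was whether the response of the newborn liver to loss of Lkb1 differed from its response to loss of RbpJk. Livers of 12 mice, all 12 of the series, were profiled 5 days after birth, each on its own Affymetrix whole-transcript array, in 4 groups of 3. LKB1 KO livers were Cre-positive with a liver-specific deletion of Lkb1 (official symbol Stk11), and LKB1 WT livers were the Cre-negative controls of that arm. RbpJk KO livers were Cre-positive with a liver-specific inactivation of the Notch pathway through RbpJk (official symbol Rbpj), and RbpJk WT livers were the Cre-negative controls of the other arm. The labels give no strain, litter or array date, and no source used here gives the Cre driver of these newborn mice or the alleles of the Cre-negative mice. The measure followed below is the interaction, which is the LKB1 effect (LKB1 KO minus LKB1 WT) minus the RbpJk effect (RbpJk KO minus RbpJk WT) on the log2 scale. A positive interaction means that the LKB1 effect was the higher of the pair. It was fitted with limma for 23185 genes, and a Benjamini-Hochberg adjusted p under 0.05 over all of them counted as a call. The interaction was called for 42 of 23185 genes, which is 0.181% of the genes tested. For 12 genes (0.0518%) it was positive and for 30 (0.129%) negative.

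Lkb1 is a kinase that activates AMPK and its relatives, and in liver it is known for restraining glucose production and for hepatocyte polarity. RbpJk is the DNA-binding protein through which cleaved Notch receptors switch on their target genes, and in liver it is known for bile duct formation. Hepatocytes, which make most plasma proteins, are the main cell of the liver, and in the newborn they share the organ with Kupffer cells, endothelium and blood-forming cells. A gene can enter the interaction by moving in 1 arm, by moving in opposite ways, or by moving the same way to different extents, and each of these occurred.

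The targeted genes were examined first. Stk11 was at 7.03, 6.85 and 6.38 in LKB1 KO livers, against 7.58, 7.53 and 7.53 in LKB1 WT livers. It was at 7.33, 7.73 and 7.64 in RbpJk KO livers, against 7.43, 7.40 and 7.54 in RbpJk WT livers. The LKB1 KO arrays were thus the only ones below 7.33, and the interaction of -0.91 ± 0.21 (SE) missed the threshold (adjusted p = 0.129). Rbpj was at 4.85, 4.81 and 4.91 in LKB1 KO livers, against 4.92, 4.82 and 4.55 in LKB1 WT livers. It was at 4.61, 4.48 and 3.92 in RbpJk KO livers, against 4.84, 5.05 and 5.31 in RbpJk WT livers. The RbpJk KO arrays lay below those of RbpJk WT and LKB1 KO livers, and its interaction was 0.82 ± 0.27 (adjusted p = 0.329). No source used here says whether the probes of either gene lie in the deleted exons.

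Some arrays stood apart or went against their labels. All mice are labelled male, but Xist, which is made from the inactive X chromosome of females, was at 10.63 to 10.75 on 6 arrays and at 3.81 to 5.09 on the other 6. High Xist was found on 1 of 3 LKB1 KO, 3 of 3 LKB1 WT, 0 of 3 RbpJk KO and 2 of 3 RbpJk WT arrays, so each knockout group had 2 fewer such arrays than its controls. With Xist class as a covariate the interaction was called for 46 genes, 41 of the 42 among them. A fit on 8 arrays of a single Xist class in each arm, high for LKB1 and low for RbpJk, left 1 LKB1 KO and 1 RbpJk WT array. Each lone array was assumed to vary like the other groups, so the 3 genes called there (Serpina6, Ttyh1 and Serpina3f) do not show how far the calls depend on Xist class. RbpJk KO 2 carried muscle RNA, as its summed level of 4 markers was 2910 intensity units, while the other 11 arrays reached at most 109. RbpJk WT 1 carried pancreatic RNA, with 2280 units over 7 measured acinar markers and at most 237 elsewhere. Without both of these arrays the interaction was called for 40 genes, 18 positive and 22 negative, 26 of them among the 42. The hepatocyte markers were high on all arrays (6 of 8 measured), with summed levels of 32600 to 32900 in LKB1 KO, 34400 to 35100 in LKB1 WT, 33700 to 35400 in RbpJk KO and 33900 to 35200 in RbpJk WT livers.

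Each arm alone gave more calls than the difference between the arms. The LKB1 effect was called for 223 genes (0.962%) and the RbpJk effect for 390 (1.68%). A call in 1 arm rarely came with a called difference between the arms. Of 150 genes called in the LKB1 arm only, 10 (6.67%) had a called interaction, and of 317 called in the RbpJk arm only, 26 (8.2%) did. Of the 73 genes called in both arms 71 moved in the same direction, and 5 of the 73 (6.85%) had a called interaction. Among all genes tested the share was 0.181%. For the other 140 and 291 genes called in 1 arm, the data do not show that the arms differed. The interaction combines 4 group means and its median SE was 0.230, against 0.163 for the LKB1 effect.

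Of the 42 genes, 10 had a mean log2 intensity under 5 (Tigit, Pramel27, Saa1, Saa2, Frzb, Pcdh20, Nipal2, Cytip, Atp6v0d2 and Cltrn) and were left out by the filter on dim genes. By arm, the 42 genes fell into these kinds. Of these, 5 were called in both arms, 2 in opposite directions (Serpina6 and Pramel27) and 3 in the same direction (Slpi, Mug1 and Cyp2c69). A further 10 were called in the LKB1 arm only, 5 rising and 5 falling, and 26 in the RbpJk arm only, 22 rising and 4 falling. Cytip was called in neither arm. The fitted effects had opposite signs in 31 of the 42, but both effects were called in only 2 of these, Serpina6 and Pramel27.

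**Figure D1:**
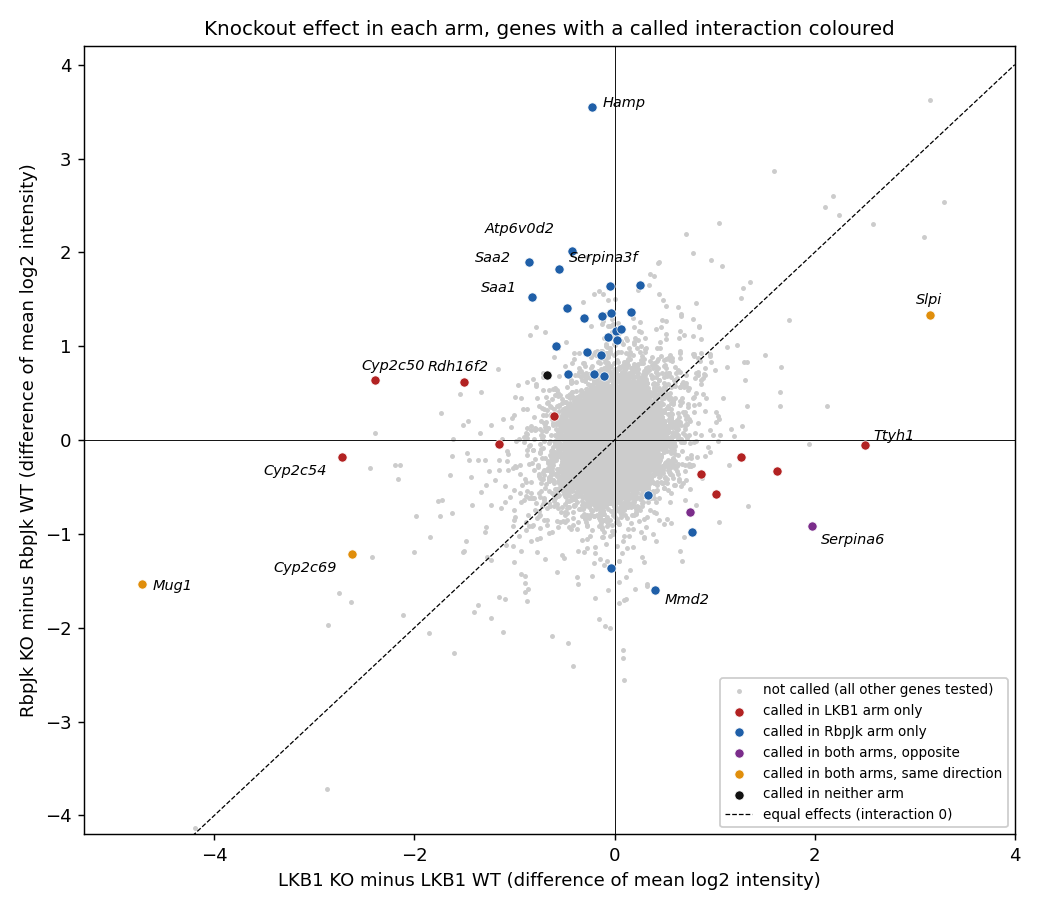
Knockout effect in the LKB1 arm (horizontal, log2) against that in the RbpJk arm (vertical, log2) for all 23185 genes, with the 42 genes of a called interaction coloured by the arm in which they were called. Ttyh1, called in the LKB1 arm only, lies close to the horizontal axis and Hamp, called in the RbpJk arm only, close to the vertical axis, whereas Saa1 and Cyp2c50 lie off the axes and Serpina6 lies far from the dashed line of equal effects.

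Serpina6, which encodes corticosteroid-binding globulin, the plasma carrier of glucocorticoids, had the lowest p of the interaction and moved in opposite ways. It was at 10.65, 10.50 and 10.50 in LKB1 KO livers, against 8.91, 8.35 and 8.48 in LKB1 WT livers. In RbpJk KO livers it was at 7.56, 7.92 and 7.91, against 8.80, 9.0 and 8.35 in RbpJk WT livers. The control groups overlapped, whereas all LKB1 KO arrays lay above and all RbpJk KO arrays below every control. The gene rose 3.92-fold in the LKB1 arm (adjusted p = 3.97e-05) and fell 1.89-fold in the RbpJk arm (adjusted p = 0.013), and the interaction was 2.89 ± 0.24 (adjusted p = 0.000228). Pramel27, the other gene called in opposite directions, had means of 2.98 ± 0.22 (SD, n = 3) in LKB1 KO and 2.23 ± 0.13 in LKB1 WT livers, and 1.81 ± 0.09 in RbpJk KO and 2.58 ± 0.23 in RbpJk WT livers. Its interaction was 1.52 ± 0.22 (adjusted p = 0.0109, and 0.0502 without RbpJk KO 3).

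Slpi, Mug1 and Cyp2c69 moved the same way in both arms, and further in the LKB1 arm. Slpi, a secreted inhibitor of neutrophil elastase, was at 10.34, 10.50 and 10.55 in LKB1 KO livers, against 7.41, 7.54 and 6.97 in LKB1 WT livers. It was at 8.32, 8.01 and 8.11 in RbpJk KO livers, against 6.90, 6.94 and 6.60 in RbpJk WT livers. It thus rose 8.92-fold after loss of Lkb1 and 2.52-fold after loss of RbpJk, with an interaction of 1.83 ± 0.21 (adjusted p = 0.00381).

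Mug1 encodes a murinoglobulin, a plasma protease inhibitor of rodents. It was at 4.0, 3.76 and 3.33 in LKB1 KO livers, against 8.39, 9.04 and 7.83 in LKB1 WT livers, and at 6.92, 6.94 and 7.02 in RbpJk KO livers, against 8.14, 8.42 and 8.94 in RbpJk WT livers. The controls overlapped fully, and the falls were 26.4-fold in the LKB1 arm and 2.9-fold in the RbpJk arm (interaction -3.18 ± 0.38, adjusted p = 0.00381). Its relatives did not pass. A2m had an interaction of -1.13 ± 0.23 (adjusted p = 0.0785) and Mug2 one of 0.05 ± 0.38 (adjusted p = 0.984, 95% interval -0.76 to 0.87), so that among 5 measured genes of the murinoglobulin and alpha-2-macroglobulin list 1 was called.

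Cyp2c69, a cytochrome P450, fell 6.14-fold in the LKB1 arm and 2.32-fold in the RbpJk arm (interaction -1.41 ± 0.24, adjusted p = 0.0298). The knockout levels were close, at 6.56 ± 0.14 in LKB1 KO and 7.11 ± 0.11 in RbpJk KO livers. The control levels were 9.18 ± 0.30 in LKB1 WT and 8.33 ± 0.33 in RbpJk WT livers, so the size of the control difference exceeded that of the knockout difference. Its call was lost in 9 of 12 fits with 1 array left out (adjusted p up to 0.0995 without LKB1 KO 3).

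Neighbours of Cyp2c69 on chromosome 19 moved in the LKB1 arm only. Cyp2c54 was at 5.12, 4.86 and 5.14 in LKB1 KO livers, against 7.58, 7.78 and 7.93 in LKB1 WT livers, and at 7.48, 6.32 and 6.87 in RbpJk KO livers, against 7.0, 6.97 and 7.24 in RbpJk WT livers. It fell 6.59-fold in the LKB1 arm, while the RbpJk groups overlapped (interaction -2.54 ± 0.31, adjusted p = 0.00381). Cyp2c50, the adjacent gene, was at 4.04, 2.92 and 3.61 in LKB1 KO livers, against 5.20, 6.40 and 6.13 in LKB1 WT livers, and at 6.74, 5.56 and 6.62 in RbpJk KO livers, against 5.53, 5.54 and 5.95 in RbpJk WT livers. Its interaction of -3.03 ± 0.50 (adjusted p = 0.0267) lost its call in 8 of 12 fits with 1 array left out (adjusted p up to 0.091 without RbpJk KO 3) and with a robust variance prior (0.0531). Probes of such close relatives can share signal. Of 15 measured Cyp2c cytochromes these 3 were called, and 8 were lower and 2 higher at an unadjusted p under 0.05. Among all genes 0.181% were called, and 5.19% were lower and 3.94% higher at that p. The median interaction of the list was -0.60.

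The other 3 genes that fell in the LKB1 arm only were also products of hepatocytes. Rdh16f2, a retinol dehydrogenase relative, was at 4.71, 4.57 and 5.04 in LKB1 KO livers, against 6.67, 6.27 and 5.89 in LKB1 WT livers, and at 8.41, 8.44 and 8.64 in RbpJk KO livers, against 7.72, 7.61 and 8.30 in RbpJk WT livers. It already differed by -1.60 between the controls (adjusted p = 0.00241), and its interaction was -2.13 ± 0.29 (adjusted p = 0.00962). Saa4, the constitutively made serum amyloid of high-density lipoprotein, was at 7.23, 7.17 and 7.21 in LKB1 KO livers, and between 8.28 and 8.56 on the other 9 arrays. This gave an interaction of -1.11 ± 0.13 (adjusted p = 0.00381) with no more than 0.08 between the control means. Fgl1, a protein secreted by hepatocytes, had an interaction of -0.86 ± 0.12 (adjusted p = 0.00962), with means of 10.25 ± 0.03 in LKB1 KO and 10.85 ± 0.13 in LKB1 WT livers, and of 11.19 ± 0.09 in RbpJk KO and 10.92 ± 0.10 in RbpJk WT livers.

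The 5 genes that rose in the LKB1 arm only included several that encode membrane proteins. Ttyh1, a member of the tweety family, was at 7.97, 7.53 and 7.98 in LKB1 KO livers, against 5.25, 5.47 and 5.25 in LKB1 WT livers. It was at 5.28, 5.20 and 5.39 in RbpJk KO livers, against 5.52, 5.78 and 4.72 in RbpJk WT livers. The 9 arrays of the other 3 groups overlapped, and the rise of 5.66-fold was found in the LKB1 arm (interaction 2.55 ± 0.31, adjusted p = 0.00381). Nipal2, a NIPA-like membrane protein, was at 4.70, 4.30 and 4.86 in LKB1 KO livers, against 2.98, 3.04 and 2.95 in LKB1 WT livers, and was at most 3.24 in RbpJk KO and 3.62 in RbpJk WT livers (interaction 1.96 ± 0.28, adjusted p = 0.0109). The other 3 were less firm. Hdhd3, a hydrolase-like protein, had an interaction of 1.59 ± 0.26 (adjusted p = 0.0267) and lost its call in 7 of 12 fits with 1 array left out (adjusted p up to 0.0855 without LKB1 WT 2). For the adhesion protein gene Pcdh20 (1.45 ± 0.27, adjusted p = 0.048) this happened in 10 fits (up to 0.135 without LKB1 WT 3). For Cltrn, which encodes collectrin, a partner of amino acid transporters in kidney (1.22 ± 0.22, adjusted p = 0.0379), it happened in all 12 (up to 0.112 without LKB1 KO 3). Hdhd3 and Cltrn were also lower on all RbpJk KO than on all RbpJk WT arrays, without a call. Their RbpJk effects were -0.58 (adjusted p = 0.156) and -0.36 (adjusted p = 0.296).

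Mmd2, Ppp1r10, Egln3 and Nfe2l2 fell in the RbpJk arm only. Mmd2, a membrane protein of the progestin and adipoQ receptor family, was at 8.95, 8.45 and 8.78 in LKB1 KO livers, against 8.58, 8.12 and 8.26 in LKB1 WT livers. It was at 6.56, 7.27 and 6.87 in RbpJk KO livers, against 8.77, 8.02 and 8.70 in RbpJk WT livers. The RbpJk KO arrays lay below all others, and the interaction was 2.0 ± 0.30 (adjusted p = 0.0146). Ppp1r10, a nuclear regulator of protein phosphatase 1, was at 5.83, 5.73 and 5.71 in RbpJk KO livers and between 6.60 and 7.30 on the other 9 arrays (interaction 1.33 ± 0.24, adjusted p = 0.0438). Egln3, a prolyl hydroxylase that marks hypoxia-inducible factors for breakdown, fell 1.97-fold in the RbpJk arm (adjusted p = 0.0179). In the LKB1 arm its means were 7.44 ± 0.28 in KO and 6.66 ± 0.15 in WT livers (adjusted p = 0.0897), and its interaction was 1.76 ± 0.27 (adjusted p = 0.0163). Nfe2l2 encodes Nrf2, the activator of antioxidant genes, and fell 1.5-fold in the RbpJk arm (interaction 0.92 ± 0.14, adjusted p = 0.0142). It was at 9.22, 9.17 and 8.95 in LKB1 KO livers, against 8.90, 8.72 and 8.73 in LKB1 WT livers. That LKB1 effect of 0.33 was not called (adjusted p = 0.186). Of 18 measured Nrf2 targets outside the glutathione transferases 0 had a called interaction and 5 were lower at an unadjusted p under 0.05. Of the same 18, 4 were called as rising in the RbpJk arm and 1 in the LKB1 arm. Among all 23185 genes 5.19% were lower at that p, and 259 and 97 were called as rising in these arms. Mmd2, Egln3 and Nfe2l2 each lost their call without LKB1 WT 2, LKB1 WT 3 or RbpJk KO 3 (adjusted p up to 0.0609, 0.0708 and 0.0609, each without RbpJk KO 3), and Ppp1r10 in 10 of 12 fits (up to 0.129 without LKB1 WT 3).

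Hamp and 2 serum amyloid genes were among the 22 genes that rose in the RbpJk arm only, and each lies beside a close relative on chromosome 7. Hamp encodes hepcidin, the hormone that blocks the release of iron from cells, and its transcription in hepatocytes is known to be driven by BMP signalling through SMADs and by interleukin-6 through STAT3. Saa1 and Saa2 encode serum amyloids A, made in large amounts in the acute phase and known targets of NF-kappaB. The windows before and after their start sites are shown because these relatives have closely similar windows, while their levels are described one by one below. They span 250 bases before and 50 after the start, 5′ to 3′ on the strand of the gene, from RefSeq, GRCm38.p6. Entries were found for 34 of the 42 genes. Capitals mark matches found on either strand, with no overlap between them. Saa1 and Saa2 were searched for GGRRNWYYCC, a form of the NF-kappaB consensus. In it R is A or G, Y is C or T, W is A or T, and N is any base. Hamp and Hamp2 were searched for GGCGCC (a BMP-responsive core) and TTCNNNGAA (a STAT motif). No match to GGRRNWYYCC was found in the Saa2 window and none to GGCGCC in the Hamp2 window.
Saa1, chr7:46742931-46743230, minus strand: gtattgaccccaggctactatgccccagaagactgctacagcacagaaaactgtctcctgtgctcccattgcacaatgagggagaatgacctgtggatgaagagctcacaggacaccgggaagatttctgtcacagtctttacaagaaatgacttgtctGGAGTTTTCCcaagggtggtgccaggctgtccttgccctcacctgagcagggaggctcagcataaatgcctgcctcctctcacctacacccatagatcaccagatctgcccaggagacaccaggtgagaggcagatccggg
Saa2, chr7:46751583-46751882, plus strand: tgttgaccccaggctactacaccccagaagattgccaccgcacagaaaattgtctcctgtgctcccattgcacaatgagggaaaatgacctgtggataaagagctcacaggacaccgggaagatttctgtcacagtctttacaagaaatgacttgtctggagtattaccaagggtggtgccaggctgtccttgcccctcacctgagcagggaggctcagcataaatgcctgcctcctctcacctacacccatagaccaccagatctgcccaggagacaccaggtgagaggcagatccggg
Hamp, chr7:30943980-30944279, minus strand: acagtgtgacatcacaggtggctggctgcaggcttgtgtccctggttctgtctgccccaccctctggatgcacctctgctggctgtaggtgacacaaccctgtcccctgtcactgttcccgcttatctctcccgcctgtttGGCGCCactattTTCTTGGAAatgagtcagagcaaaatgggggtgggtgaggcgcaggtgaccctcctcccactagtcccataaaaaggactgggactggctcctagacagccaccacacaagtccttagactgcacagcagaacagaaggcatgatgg
Hamp2, chr7:30924132-30924431, minus strand: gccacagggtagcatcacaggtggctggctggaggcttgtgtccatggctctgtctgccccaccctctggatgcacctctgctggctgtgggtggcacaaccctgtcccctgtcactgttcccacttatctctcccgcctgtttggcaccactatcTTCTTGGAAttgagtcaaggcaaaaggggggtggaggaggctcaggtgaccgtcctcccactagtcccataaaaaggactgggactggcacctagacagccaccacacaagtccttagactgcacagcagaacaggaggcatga
The Saa1 and Saa2 windows were 95.3% identical when aligned, and those of Hamp and Hamp2 91.1%. Of 32851 promoter windows of this length, 7.86% hold a match to GGRRNWYYCC, 11.9% hold GGCGCC and 8.3% hold TTCNNNGAA. A match is a run of letters and was not tested as a binding site.

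Hamp was at 11.74, 11.19 and 11.74 in LKB1 KO livers, against 11.78, 11.65 and 11.93 in LKB1 WT livers. It was at 9.40, 9.20 and 10.002 in RbpJk KO livers, against 5.95, 7.14 and 4.86 in RbpJk WT livers. Even the raised RbpJk KO arrays lay below all LKB1 arrays, KO and WT. The rise of 11.7-fold in the RbpJk arm gave an interaction of -3.78 ± 0.56 (adjusted p = 0.0142, and 0.0587 without RbpJk KO 3). With a robust variance prior the SE was 0.70 and the call was lost (adjusted p = 0.104). It was the interaction of greatest size among the 42, and it was made up of a knockout difference of 2.03 and a control difference of 5.80. Hamp2, the adjacent relative, was at 2.63, 2.67 and 3.16 in LKB1 KO livers, against 5.49, 4.78 and 4.76 in LKB1 WT livers, and at 2.75, 3.11 and 3.02 in RbpJk KO livers, against 2.67, 3.14 and 3.86 in RbpJk WT livers. It fell in the LKB1 arm (adjusted p = 0.00114), overlapped between the RbpJk groups, and had an interaction of -1.93 ± 0.39 that did not pass (adjusted p = 0.0753). Of 21 measured genes of hepcidin and iron handling, Hamp was the 1 called, and 7 were lower and 1 higher at an unadjusted p under 0.05, against 5.19% lower and 3.94% higher among all genes. Bmp2, the endothelial signal to Hamp, had an interaction of -0.63 ± 0.25 (adjusted p = 0.441), and the transferrin receptor gene Tfrc one of 0.66 ± 0.26 (adjusted p = 0.445).

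Saa2 was at 1.93, 2.19 and 2.28 in LKB1 KO livers, against 3.59, 2.19 and 3.17 in LKB1 WT livers, and at 5.43, 5.64 and 5.58 in RbpJk KO livers, against 3.77, 3.81 and 3.40 in RbpJk WT livers. It rose 3.71-fold in the RbpJk arm, and its interaction was -2.74 ± 0.38 (adjusted p = 0.00962). Saa1 was at 3.0, 3.14 and 2.87 in LKB1 KO livers, against 3.90, 3.42 and 4.17 in LKB1 WT livers, and at 6.29, 7.20 and 6.70 in RbpJk KO livers, against 5.76, 4.63 and 5.23 in RbpJk WT livers. For Saa1 the 4 groups lay in separate ranges, with the LKB1 groups below the RbpJk groups. Its interaction was -2.35 ± 0.40 (adjusted p = 0.0298), and its control difference of -1.38 was itself called (adjusted p = 0.04). The call of Saa1 was lost in 9 of 12 fits with 1 array left out (adjusted p up to 0.0986 without LKB1 KO 3), that of Saa2 in 0. Steap4, a metalloreductase induced in inflammation, rose 2.26-fold in the RbpJk arm, with means of 7.76 ± 0.13 in LKB1 KO and 7.70 ± 0.13 in LKB1 WT livers, and of 9.18 ± 0.21 in RbpJk KO and 8.0 ± 0.12 in RbpJk WT livers (interaction -1.12 ± 0.17, adjusted p = 0.0163). Serpina3f, a mouse relative of antichymotrypsin, rose 3.53-fold there (interaction -2.37 ± 0.39, adjusted p = 0.0245). Steap4 lost its call in 4 of 12 fits (adjusted p up to 0.0682 without RbpJk KO 3) and Serpina3f in 5 (up to 0.0783 without LKB1 WT 2).

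Negative interactions were also frequent in the acute phase list. Of 24 measured acute phase genes 4 were called (Saa1, Saa2, Saa4 and Steap4, all negative), and 15 were lower and 0 higher at an unadjusted p under 0.05, against 0.181% called, 5.19% lower and 3.94% higher among all genes. The median interaction was -0.42, from medians of -0.23 in the LKB1 arm and 0.12 in the RbpJk arm. Lcn2, an iron-binding protein of neutrophils and the acute phase, had an interaction of -0.95 ± 0.20 (adjusted p = 0.0928), and Socs3, the feedback inhibitor of interleukin-6 signalling, -0.84 ± 0.22 (adjusted p = 0.188). Among 17 measured inflammatory chemokines 0 were called, but 9 were lower and 1 was higher at an unadjusted p under 0.05, against the same shares of all genes (median -0.48). Ccl2, which draws in monocytes, had an interaction of -1.46 ± 0.34 (adjusted p = 0.124).

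**Figure D2:**
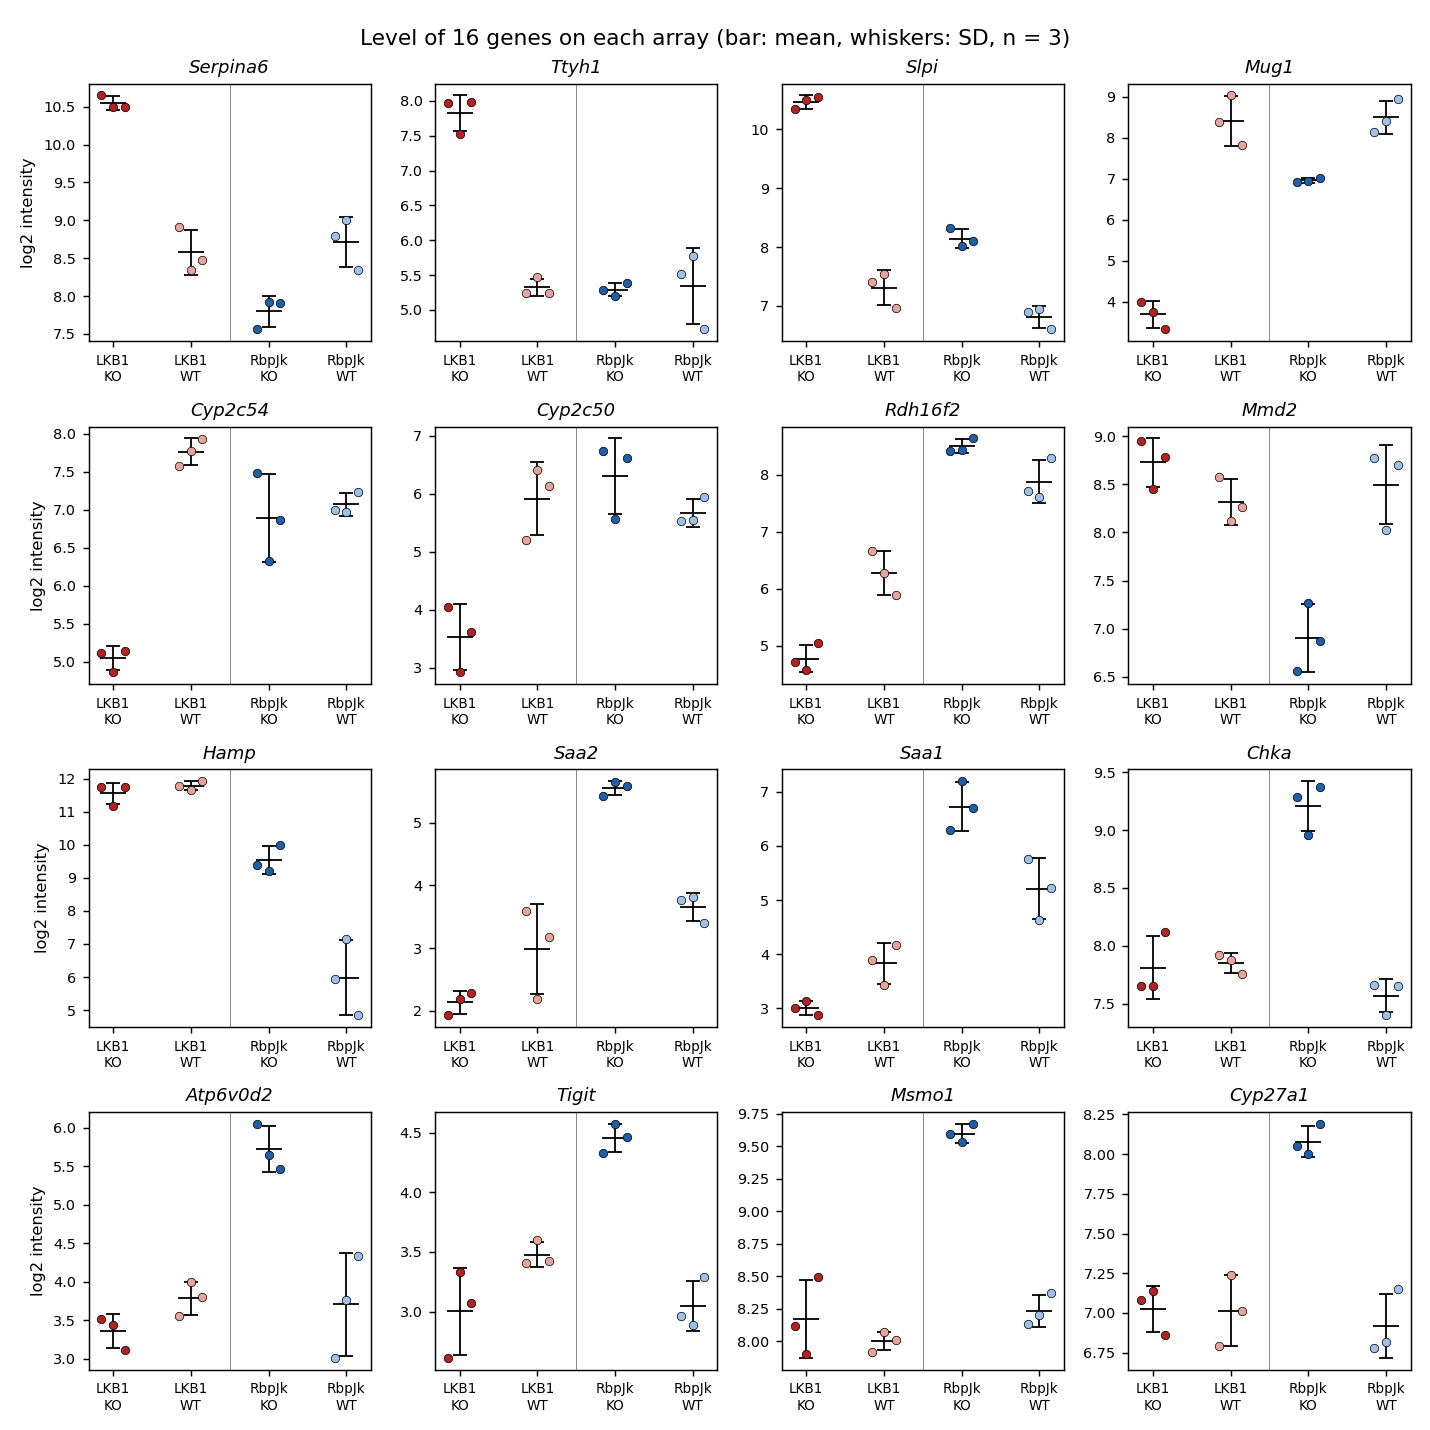
Log2 intensity of 16 genes on each of the 12 arrays (points), with the mean (bar) and SD (whiskers, n = 3) of LKB1 KO, LKB1 WT, RbpJk KO and RbpJk WT livers. Serpina6 moves in opposite ways, Ttyh1 and Cyp2c54 move in the LKB1 arm, Mmd2, Chka and Msmo1 in the RbpJk arm, and Hamp differs most between the control groups.

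Chka, Msmo1, Cyp27a1 and Txnip also rose in the RbpJk arm only. Chka, the kinase that starts phosphatidylcholine synthesis from choline, was at 7.65, 7.65 and 8.12 in LKB1 KO livers, against 7.92, 7.88 and 7.76 in LKB1 WT livers. It was at 9.29, 8.96 and 9.37 in RbpJk KO livers, against 7.66, 7.40 and 7.65 in RbpJk WT livers. The LKB1 groups overlapped, and the interaction was -1.68 ± 0.20 (adjusted p = 0.00381). Msmo1, the sterol methyl oxidase of cholesterol synthesis, was at 8.12, 7.90 and 8.49 in LKB1 KO livers, against 7.92, 8.07 and 8.01 in LKB1 WT livers, and at 9.59, 9.53 and 9.67 in RbpJk KO livers, against 8.13, 8.20 and 8.37 in RbpJk WT livers. Its rise of 2.57-fold in the RbpJk arm gave an interaction of -1.19 ± 0.18 (adjusted p = 0.0163). The call of Msmo1 was lost without LKB1 WT 2, LKB1 WT 3 or RbpJk KO 3 (adjusted p up to 0.0728 without RbpJk KO 3) and without both RbpJk KO 2 and RbpJk WT 1 (0.0565).

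Of 17 measured cholesterol synthesis genes Msmo1 was the 1 called, 13 were lower and 0 higher at an unadjusted p under 0.05, against 9.13% of all genes in either direction. The median effect was 0.21 in the LKB1 arm, where 2 were called as rising, and 0.86 in the RbpJk arm, where 13 were. The median interaction was -0.62 and stayed between -0.68 and -0.55 in all 23 other settings. Lss, which closes the sterol ring, had an interaction of -1.35 ± 0.30 (adjusted p = 0.113) and Hmgcs1, which makes the precursor of mevalonate, -0.73 ± 0.20 (adjusted p = 0.226). The median effects of both arms were thus positive in this list, with more calls in the RbpJk arm. Among all 23185 genes 97 were called as rising in the LKB1 arm and 259 in the RbpJk arm, and the median effects were -0.01 and -0.03.

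Cyp27a1, the sterol 27-hydroxylase of the alternative bile acid pathway, was at 7.08, 7.14 and 6.86 in LKB1 KO livers, against 6.79, 7.24 and 7.01 in LKB1 WT livers. In the RbpJk arm it was at 8.05, 8.0 and 8.19 in KO livers, against 6.78, 6.82 and 7.15 in WT livers. It rose 2.24-fold in the RbpJk arm, the LKB1 groups overlapped, and the interaction was -1.15 ± 0.20 (adjusted p = 0.0298, lost in 8 of 12 fits, up to 0.103 without RbpJk KO 3). Cyp7a1, the rate-limiting enzyme of the classic pathway, had an interaction of 1.97 ± 0.37, just outside the threshold (adjusted p = 0.0536), with a fall in the RbpJk arm (log2 change -1.29, adjusted p = 0.0216) and a change of 0.68 in the LKB1 arm (adjusted p = 0.444). Txnip, an inhibitor of thioredoxin and of glucose uptake, rose 2.09-fold in the RbpJk arm, with means of 8.91 ± 0.08 in LKB1 KO and 8.88 ± 0.10 in LKB1 WT livers, and of 9.82 ± 0.16 in RbpJk KO and 8.76 ± 0.14 in RbpJk WT livers (interaction -1.03 ± 0.15, adjusted p = 0.0109). Its call held in all 12 fits with 1 array left out.

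A further group of the genes that rose in the RbpJk arm only is known from immune cells, platelets and phagocytes. Tigit, an inhibitory receptor of T and NK cells, was at 2.61, 3.33 and 3.07 in LKB1 KO livers, against 3.41, 3.60 and 3.42 in LKB1 WT livers. It was at 4.33, 4.57 and 4.46 in RbpJk KO livers, against 2.96, 2.89 and 3.29 in RbpJk WT livers. The RbpJk KO arrays lay above all others (interaction -1.88 ± 0.26, adjusted p = 0.00962). Atp6v0d2, a proton pump subunit of macrophages and osteoclasts, was at 3.52, 3.44 and 3.11 in LKB1 KO livers, against 3.56, 4.0 and 3.80 in LKB1 WT livers, and at 6.05, 5.65 and 5.47 in RbpJk KO livers, against 3.01, 3.77 and 4.34 in RbpJk WT livers. It rose 4.05-fold in the RbpJk arm (interaction -2.45 ± 0.39, adjusted p = 0.0196, lost in 4 of 12 fits, up to 0.0721 without LKB1 KO 3). Selp, the P-selectin of platelets and endothelium, was at 6.54, 6.32 and 6.69 in RbpJk KO livers and between 4.84 and 5.30 on the other 9 arrays (interaction -1.39 ± 0.21, adjusted p = 0.0142, and 0.0609 without RbpJk KO 3).

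The remaining immune-related genes each lost their call in 6 or more of the 12 fits with 1 array left out. These were Lilrb4a, an inhibitory receptor of myeloid cells (-1.60), the scavenger receptor gene Colec12 (-1.59), the fungal sensor gene Clec7a (-1.22), Pla2g7, which breaks down platelet-activating factor (-1.17), and Rel, a subunit of NF-kappaB (-1.16). Entpd1, an ectoenzyme that degrades ATP, had an interaction of -1.04, Fxyd5, a modulator of the sodium pump, -0.91, and Lgmn, a lysosomal protease, -0.78, which was the smallest of the 42 at 1.72-fold. Each rose in the RbpJk arm by between 1.6-fold (Lgmn) and 2.46-fold (Lilrb4a). Colec12, Pla2g7 and Entpd1 were also lower on all LKB1 KO than on all LKB1 WT arrays, without a call. Their LKB1 effects were -0.59, -0.46 and -0.13 (adjusted p = 0.215, 0.208 and 0.941). The LKB1 groups overlapped for Lilrb4a, Clec7a, Rel, Fxyd5 and Lgmn. Cytip, which binds cytohesins in blood cells, had means of 3.89 ± 0.30 in LKB1 KO and 4.57 ± 0.10 in LKB1 WT livers, and of 5.25 ± 0.01 in RbpJk KO and 4.56 ± 0.24 in RbpJk WT livers. Neither arm alone was called for Cytip, and the interaction was -1.38 ± 0.24 (adjusted p = 0.036). Calls were lost in 6 of 12 fits with 1 array left out for Colec12 (adjusted p up to 0.0763 without RbpJk KO 3), 7 for Entpd1 (0.0838 without LKB1 WT 3), 9 for Pla2g7 (0.0984 without LKB1 KO 3) and Fxyd5 (0.111 without LKB1 WT 2), 10 for Lilrb4a (0.112 without LKB1 WT 2), Clec7a (0.112 without LKB1 KO 3), Lgmn (0.141 without LKB1 WT 3) and Cytip (0.116 without LKB1 WT 2), and 11 for Rel (0.105 without LKB1 WT 3).

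Markers of cells that are known to make such genes differed mainly in the LKB1 arm, where the Kupffer cell and endothelial sums were lower in KO than in WT livers, while the sums of the RbpJk groups overlapped. The summed level of 6 Kupffer cell markers was 1470 to 1540 in LKB1 KO and 1760 to 1980 in LKB1 WT livers, and 1950 to 2070 in RbpJk KO and 1740 to 2030 in RbpJk WT livers. That of 6 neutrophil markers was 5160 to 5880 in LKB1 KO and 5470 to 7210 in LKB1 WT livers, and 7650 to 10300 in RbpJk KO and 7800 to 9090 in RbpJk WT livers. For 6 endothelial markers it was 1570 to 1670 in LKB1 KO and 1970 to 2090 in LKB1 WT livers, and 1740 to 1950 in RbpJk KO and 1600 to 1910 in RbpJk WT livers. All of these markers were measured and none had a called interaction. In whole liver RNA, fewer cells of a type and less RNA per cell cannot be told apart, and the part of these cells in the interactions above was not tested. In the longer lists, 10 of 23 Kupffer cell and macrophage genes, 12 of 24 endothelial genes and 9 of 20 neutrophil genes were lower at an unadjusted p under 0.05, with 1, 1 and 0 higher and medians of -0.31, -0.37 and -0.45. Among all genes 5.19% were lower and 3.94% higher. The Kupffer cell median was -0.19 without LKB1 WT 3, and the neutrophil median was -0.27 without LKB1 WT 1, -0.22 without RbpJk KO 1 and -0.28 without RbpJk WT 1. Cd209f, a lectin of Kupffer cells, went the other way, with an interaction of 1.46 ± 0.31 (adjusted p = 0.084) and a fall in the RbpJk arm (-2.08, adjusted p = 0.000193).

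Frzb and Eid3 also rose in the RbpJk arm only. Frzb, a secreted antagonist of Wnt signalling, was at 2.64, 2.88 and 2.85 in LKB1 KO livers, against 2.98, 2.94 and 2.81 in LKB1 WT livers, and at 4.75 on all 3 RbpJk KO arrays, against 3.81, 3.14 and 3.32 in RbpJk WT livers. The interaction was -1.45 ± 0.24 (adjusted p = 0.0246, lost in 8 of 12 fits, up to 0.0819 without LKB1 WT 2). Eid3, which binds the coactivator EP300, was at 5.79, 5.85 and 5.71 in LKB1 KO livers, against 5.42, 5.60 and 5.56 in LKB1 WT livers, and at 7.28, 7.03 and 7.14 in RbpJk KO livers, against 5.35, 5.38 and 5.78 in RbpJk WT livers. It rose 3.13-fold in the RbpJk arm (interaction -1.39 ± 0.19, adjusted p = 0.00962), and the call held in all 12 fits with 1 array left out.

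The second question was how much of each interaction lay in the controls. For each gene the interaction equals the knockout difference (LKB1 KO minus RbpJk KO) minus the control difference (LKB1 WT minus RbpJk WT), both taken from the same arrays. Over all genes the knockout difference was called for 942 (4.06%) and the control difference for 162 (0.699%), 85 higher and 77 lower in LKB1 WT. Among the 42 genes the knockout difference was called for 41 and the control difference for 4 (Hamp, Saa1, Rdh16f2 and Cyp2c69). The median size of the knockout difference was 1.38 and that of the control difference 0.25, against 0.15 for each over all genes. In 33 of the 42 genes the control means differed by less than 0.5, but in 15 of the 42 the LKB1 WT and RbpJk WT ranges did not overlap. No share over all genes was computed for these counts, so they do not show whether the 42 differ in this from other genes. The median control difference was larger among the 42 than over all genes (0.25 against 0.15). The 42 were picked by the interaction, of which the control and knockout differences are the parts. Larger values of both parts were thus favoured by the choice itself.

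The control difference exceeded the knockout difference in size for 3 of the 42. For Hamp the control difference was 5.80 (adjusted p = 4.52e-06) and the knockout difference 2.03 (adjusted p = 0.011). For Cyp2c69 they were 0.85 (adjusted p = 0.0341) and -0.56 (adjusted p = 0.0905), so that the control difference alone was called. For Pla2g7 they were 0.59 (adjusted p = 0.0763) and -0.58 (adjusted p = 0.0334). Saa1 and Rdh16f2 differed between controls in the same direction as between knockouts, at -1.38 and -1.60 against -3.73 each, and the control difference thus reduced their interactions. At the other end Ttyh1 (-0.02), Cltrn (0.01), Lilrb4a (0.01), Cytip (0.01) and Eid3 (0.02) had near-equal control means. Differences of litter, strain or handling between the arms cannot be told apart from the arm itself in either set of arrays.

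**Figure D3:**
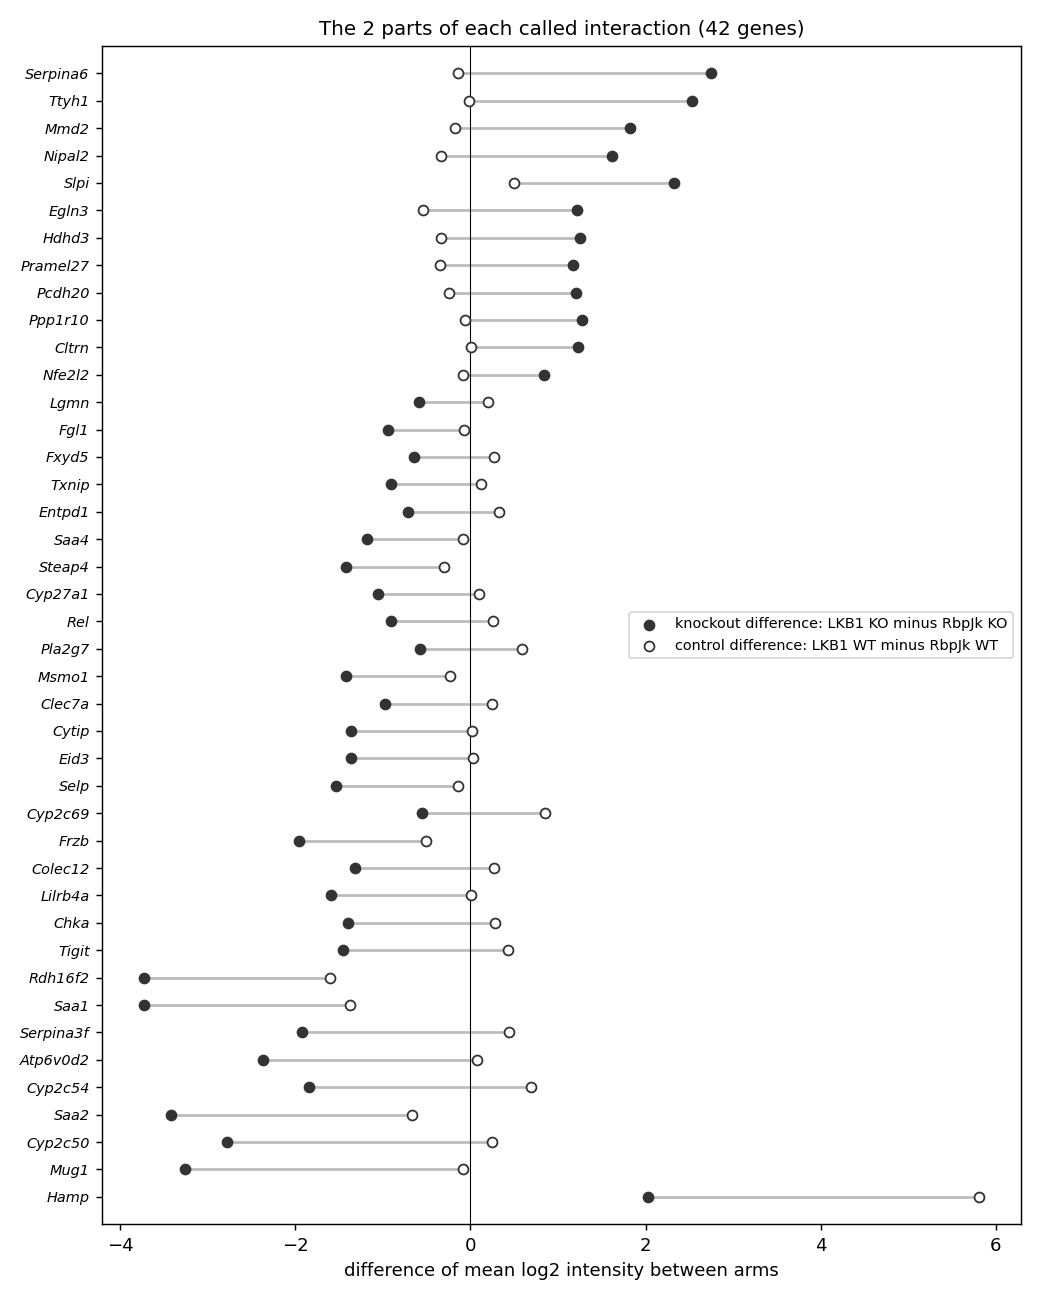
Knockout difference (LKB1 KO minus RbpJk KO, filled) and control difference (LKB1 WT minus RbpJk WT, open) of the 42 genes on the log2 scale, ordered by the interaction, which is the distance between the points. Most open points lie near 0, while Hamp has its open point at 5.80, and Rdh16f2 and Saa1 have theirs below -1.

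Among other functions, positive interactions were frequent in the lists of respiration and cell division. Of 35 measured subunits of oxidative phosphorylation 34 had a positive interaction, against 12032 of all 23185 genes. Of these subunits 0 were called, and 11 were higher and 0 lower at an unadjusted p under 0.05. Among all genes 3.94% were higher and 5.19% lower, which also holds as background for the counts that follow. The median effect was 0.25 in the LKB1 arm and -0.01 in the RbpJk arm, and Sdhc of complex II had an interaction of 0.42 ± 0.12 (adjusted p = 0.226). Of 29 proliferation genes 5 were higher and 0 lower at that p (median 0.28), Ccnb2, a mitotic cyclin, among them (0.57 ± 0.15, adjusted p = 0.205). Of 18 B cell genes 5 were higher, of which Igll1, the surrogate light chain of B cell precursors, was close to the threshold (1.08 ± 0.21, adjusted p = 0.0536) and fell in the RbpJk arm (-1.46, adjusted p = 0.000139).

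The lists of the targeted pathways themselves gave little. Of 31 measured genes of the Lkb1 complex, AMPK family and CRTC 0 were called, with 3 lower at an unadjusted p under 0.05, and of 31 Notch receptors, ligands and targets 0 were called, with 3 higher. Heyl, a Notch target, had an interaction of 0.76 ± 0.30 (adjusted p = 0.457) and Sik3, a kinase activated by Lkb1, -0.47 ± 0.14 (adjusted p = 0.281). Of 20 cholangiocyte markers 0 were called and 4 were higher at that p, against 3.94% of all genes. Their median interaction was 0.33, but 0.14 without RbpJk KO 1 and -0.0032 without RbpJk WT 1, the array with pancreatic RNA, whose sum of cholangiocyte markers was 422 against at most 229 elsewhere. Outside those pathways, the glucocorticoid response list held Serpina6 and 14 other measured genes. Of all 15, 3 were higher and 5 lower at that p, against 3.94% and 5.19% of all genes. Serpina6, with its positive interaction, was the 1 called, while the median interaction was -0.26. Hsd11b1, which regenerates active glucocorticoid, fell in both arms (-1.74 in the LKB1 arm, adjusted p = 4.16e-05, and -0.81 in the RbpJk arm, adjusted p = 0.0149). Its interaction was -0.94 ± 0.22 (adjusted p = 0.119). In all, 13 of the 42 genes stood in the 54 lists, and 46 of the 54 lists had no called gene.

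**Figure D4:**
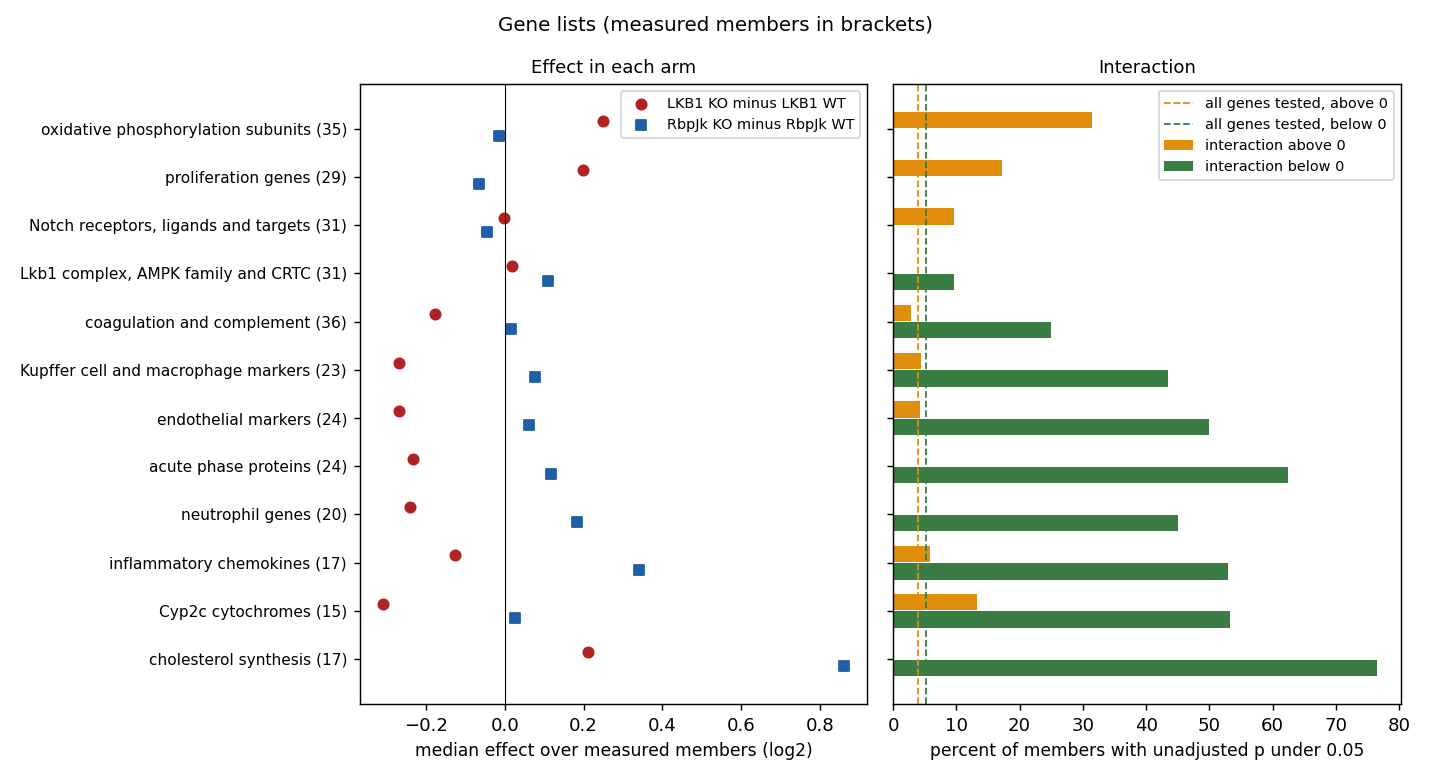
Left, median knockout effect (log2) over the measured members of 12 gene lists in the LKB1 arm (circles) and the RbpJk arm (squares). Right, percent of members with an unadjusted p under 0.05 for a positive or negative interaction, with dashed lines at the values of all genes (3.94% and 5.19%), which the negative bars of cholesterol synthesis and acute phase proteins exceed most.

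The calls were kept to different degrees when single arrays were left out. In 12 fits with 1 array left out the sign of the interaction was kept for all 42 genes, and 14 genes kept their call in every fit, namely Mug1, Saa2, Cyp2c54, Rdh16f2, Tigit, Chka, Eid3, Saa4, Txnip, Fgl1, Slpi, Nipal2, Ttyh1 and Serpina6. A further 7 lost it in 1 to 3 fits and 21 in 4 or more. Of the 42 calls, 31, 30 and 23 were kept without LKB1 KO 1, 2 and 3, and 27, 19 and 19 without LKB1 WT 1, 2 and 3. Without RbpJk KO 1, 2 and 3 the numbers were 26, 32 and 15, and without RbpJk WT 1, 2 and 3 they were 27, 29 and 35. The most calls were thus lost without RbpJk KO 3. Each of these fits also had fewer arrays and its own adjustment over all genes. A lost call therefore does not by itself show that the call rested on the array left out. Frzb, at 4.75 on all 3 RbpJk KO arrays, lost its call without RbpJk KO 3 as well (adjusted p = 0.0763). Without both RbpJk KO 2 and RbpJk WT 1, 16 calls were lost, those of Cyp2c69, Cyp27a1, Entpd1, Colec12, Lilrb4a, Fxyd5, Lgmn, Rel, Pcdh20, Cytip, Serpina3f, Ppp1r10, Clec7a, Cltrn, Msmo1 and Hdhd3, and the sign was kept for all 42. At the threshold, Ppp1r10 (adjusted p = 0.0438) and Pcdh20 (0.048) lay just inside and Zfp655 (-0.87, adjusted p = 0.0524) and Itgb2 (-0.94, adjusted p = 0.0526) just outside.

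**Figure D5:**
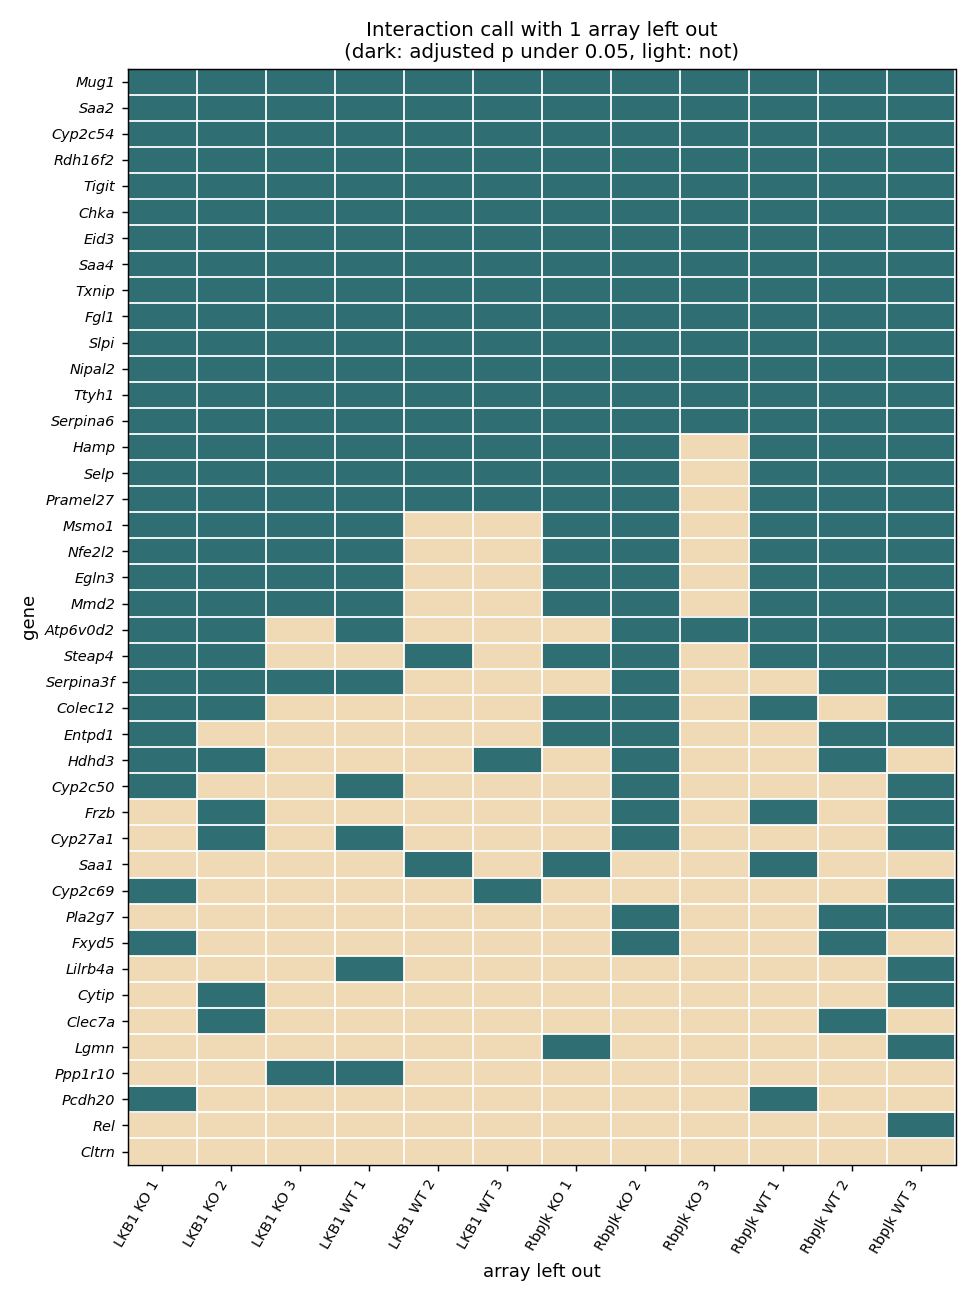
Call of the interaction for each of the 42 genes (rows) when 1 array was left out (columns), dark where the adjusted p stayed under 0.05. The upper 14 genes kept their call in all 12 fits, and the column of RbpJk KO 3 holds the most losses.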

How the data were processed

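Total RNA from 12 livers was extracted with Trizol and hybridized to Affymetrix whole-transcript arrays, per the labels. The authors deposited log2 intensities, 1 per probe set, and the submitters' processing notes name Partek. No source used here gives its version, the normalization or the summarisation. Array medians of 4.84 to 5.01 and 0 identical arrays were found. With 3 arrays per group their number limits the precision. The p-values weigh differences of group means against the spread between these samples only. Of 25206 probe sets, 23185 name 1 gene by the platform annotation, all matched to RefSeq (GRCm38.p6), and 2021 name none.

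A group-means model of the 4 groups was fitted to all 12 arrays with limma 3.58.1 in R 4.3.3 (lmFit, contrasts.fit, eBayes with intensity trend, two-sided, 8 residual and 5.88 prior degrees of freedom). Adjusted p-values are Benjamini-Hochberg over 23185 genes. On simulated arrays of these genes, 54%, 92%, 94% and 100% of interactions of 1, 2, 3 and 4 log2 units were recovered. There were 14 false calls among the unchanged genes. The simulation changed 50 genes at each size, in LKB1 KO only, with normal noise around otherwise equal means. More genes were changed there than were called in the data, so the rates can overstate the recovery here. Marker sums are of intensities on the linear scale.

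The genes and the 54 lists (1041 of 1133 genes measured) were chosen with earlier results of these data known, so list counts are descriptions. Named genes were the 15 largest called interactions each way, the 6 with the smallest p of each kind called in 1 arm, those called in opposite directions, those called in the controls alone, and up to 4 per list (34 genes). The other 8 called genes were added after their values were seen.

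Alternatives were other variance models, array weights, a filter at a mean log2 of 5, quantile normalization, median centring, all probe sets, Xist class (cut at 8) as a covariate or with 1 class per arm, and each array left out. Leaving out both RbpJk KO 2 and RbpJk WT 1 was chosen after seeing the data.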

Additional observations from a re-analysis of the deposited data

Results flagged for a closer look

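The LKB1 and RbpJk effects differed by a test of the difference itself, limma's interaction at an adjusted p under 0.05, for 42 genes. Values are interactions on the log2 scale, LKB1 effect minus RbpJk effect. For genes called in both arms in opposite directions they were Serpina6 2.89 and Pramel27 1.52. For those called in both arms in the same direction they were Slpi 1.83, Cyp2c69 -1.41 and Mug1 -3.18. Genes that rose in the LKB1 arm only had Ttyh1 2.55, Nipal2 1.96, Hdhd3 1.59, Pcdh20 1.45 and Cltrn 1.22, and those that fell there only had Fgl1 -0.86, Saa4 -1.11, Rdh16f2 -2.13, Cyp2c54 -2.54 and Cyp2c50 -3.03. Genes that fell in the RbpJk arm only had Mmd2 2.0, Egln3 1.76, Ppp1r10 1.33 and Nfe2l2 0.92. Genes that rose in the RbpJk arm only had Lgmn -0.78, Fxyd5 -0.91, Txnip -1.03, Entpd1 -1.04, Steap4 -1.12, Cyp27a1 -1.15, Rel -1.16, Pla2g7 -1.17, Msmo1 -1.19, Clec7a -1.22, Eid3 -1.39, Selp -1.39, Frzb -1.45, Colec12 -1.59, Lilrb4a -1.60, Chka -1.68, Tigit -1.88, Saa1 -2.35, Serpina3f -2.37, Atp6v0d2 -2.45, Saa2 -2.74 and Hamp -3.78. The gene called in neither arm was Cytip -1.38. With 3 arrays in each group, single arrays were not tested for standing apart within a group.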

How the results depend on the processing

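With 3 arrays a group, moderate interactions can be missed, and litter, strain and arm cannot be told apart. No paired analysis was possible because the labels give the groups no shared replicate numbers.

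Several counts changed with the processing, and the cause was not tested. A linear model without shared variance called 1 interaction (0 positive, 1 negative; 1 in 1 arm only, 0 of opposite sign, 0 resting on controls), 76 LKB1 effects, 142 RbpJk effects, 17 control and 392 knockout differences. One Xist class per arm (8 arrays, with 1 LKB1 KO and 1 RbpJk WT array, and high-Xist LKB1 set against low-Xist RbpJk arrays) gave 3 (2 and 1; 2, 3 and 0), 56, 170, 46 and 170, which say nothing about stability. Xist class as a covariate gave 132 LKB1 and 187 RbpJk effects, and no intensity trend 131 LKB1 effects. Array weights gave 512 LKB1 and 259 RbpJk effects. A filter on dim genes, which left 10 of the 42 genes out of the fit, called 64 interactions (47 negative, 55 in 1 arm only), quantile normalization 19 positive ones, and median centring 48 negative ones and 602 RbpJk effects. Without adjustment 2117 interactions passed. Interactions resting on controls (the control difference exceeding the knockout difference) numbered 3, and 5 with no trend, 7 with weights, 9 with the filter, 5 with quantile normalization, 8 with median centring and 7 without both RbpJk KO 2 and RbpJk WT 1, where 357 control differences were called. With 1 array left out, called interactions ranged from 15 to 57 (4 to 16 positive, 11 to 48 negative), those in 1 arm only from 12 to 51, of opposite sign from 9 to 41 and resting on controls from 0 to 9. LKB1 effects ranged from 106 to 235, RbpJk effects from 194 to 465, control differences from 70 to 272 and knockout differences from 502 to 1106.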
